A study of Schizosaccharomyces pombe with 3 samples.

Results

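The genes described here make ribosomes in the fission yeast Schizosaccharomyces pombe. They are 40 of 2899 named genes on an expression array, chosen by name: every gene whose platform symbol begins with one of a set of stems used for ribosome synthesis (such as utp, nop, rrp, rpa, dbp and gar) followed by a number. The rule itself uses symbols and no measured value, but it was proposed with earlier results of these data known. By their known roles, 5 genes encode RNA polymerase I subunits, 12 belong to the small-subunit processome, 3 encode snoRNP proteins beside the nucleolin-like gar2, 11 act in large-subunit assembly, 2 are counted as other rRNA proteins (1 of them, rrp12, by its platform name alone) and 3 encode RNA exosome proteins. The other 3 share a stem but are known mainly for work outside ribosome synthesis. They are imp1 (an importin alpha), imp2 (a protein of the contractile ring) and dbp2 (a DEAD-box RNA helicase with roles in messenger RNA metabolism), and they are described apart.

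Ribosome synthesis starts in the nucleolus, where RNA polymerase I transcribes ribosomal DNA into a long precursor. Small nucleolar ribonucleoproteins (snoRNPs) guide methylation and pseudouridylation of that precursor, the processome folds and cuts the part that becomes the small subunit, and a separate set of helicases, GTPases and scaffold proteins builds the large subunit. The RNA exosome trims and degrades the pieces left over. In yeasts, transcription of these genes is known to follow nutrient supply and growth through the TOR pathway.

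Total RNA from 3 cultures was measured, with 1 Affymetrix array each. The first was the prototrophic wild type SpHT219 (h-). The second was SpHT257-1, also h-, in which kanMX4 replaces eca39, the aminotransferase gene of branched-chain amino acid metabolism. The third, called adapted, was this deletion strain after growth beside wild-type cells on EMM2-N plates with 15 mM glutamate and 2 mM each of isoleucine, leucine and valine, whereas the first 2 cultures were started from YE plates, so adaptation and the plate of origin cannot be told apart. All 3 were then grown in liquid YE, a rich medium, with 2 mM of the same 3 amino acids, between optical densities of about 0.1 and 1. Every culture therefore had these amino acids supplied, and the labels do not name more than 1 clone of the deletion strain.

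Values are log2 expression after RMA, a procedure that places all arrays on a common distribution, so each difference is relative to the other transcripts on the array. The table held 4999 probe sets, which gave 4981 features after probe sets of the same gene were averaged, and array medians ran from 10.64 to 10.69. A feature was called bright in a comparison where the higher of its 2 values reached 9.82, the 30th percentile of the table, and all 40 genes were bright in each comparison. With 1 array per group there is no replicate error and no test, and the precision of each value is limited by the number of arrays. As a scale for what follows, the standard deviation of differences over all features was 0.413 for deletion minus wild type, 0.374 for adapted minus wild type and 0.245 for adapted minus deletion, real changes included. The deleted gene eca39 read 14.60, 6.12 and 6.37 in wild-type, deletion and adapted cultures, in accordance with the labels.

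The ribosome synthesis genes read slightly lower in both mutant cultures than in wild type, by a small amount that ran through most of the group. In the deletion culture 36 of 40 were below wild type, where 42.8% of all features and 51.5% of bright features were lower. Their median log2 difference was -0.21, or 1.15-fold lower, against a median of 0 over all features, and single genes ran from -0.47 to 0.11. In the adapted culture 39 of 40 were below wild type, where 34.8% of all features and 41.1% of bright features were lower. Their median there was -0.24, or 1.18-fold lower, against 0.027 over all features, with a range from -0.62 to 0.03.

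The share of all features below wild type depended on the scaling. It became 62.8% in the deletion culture, compared with 55.3% in the adapted culture when each array was centred on its median, while the counts among the 40 genes became 38 and 40. Both comparisons use the single wild-type array, so a value that happened to be high there would lower both differences. Wild type gave the highest of the 3 readings for 35 of the 40 genes, where 34.1% of the features bright on any array did so.

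**Figure D1:**
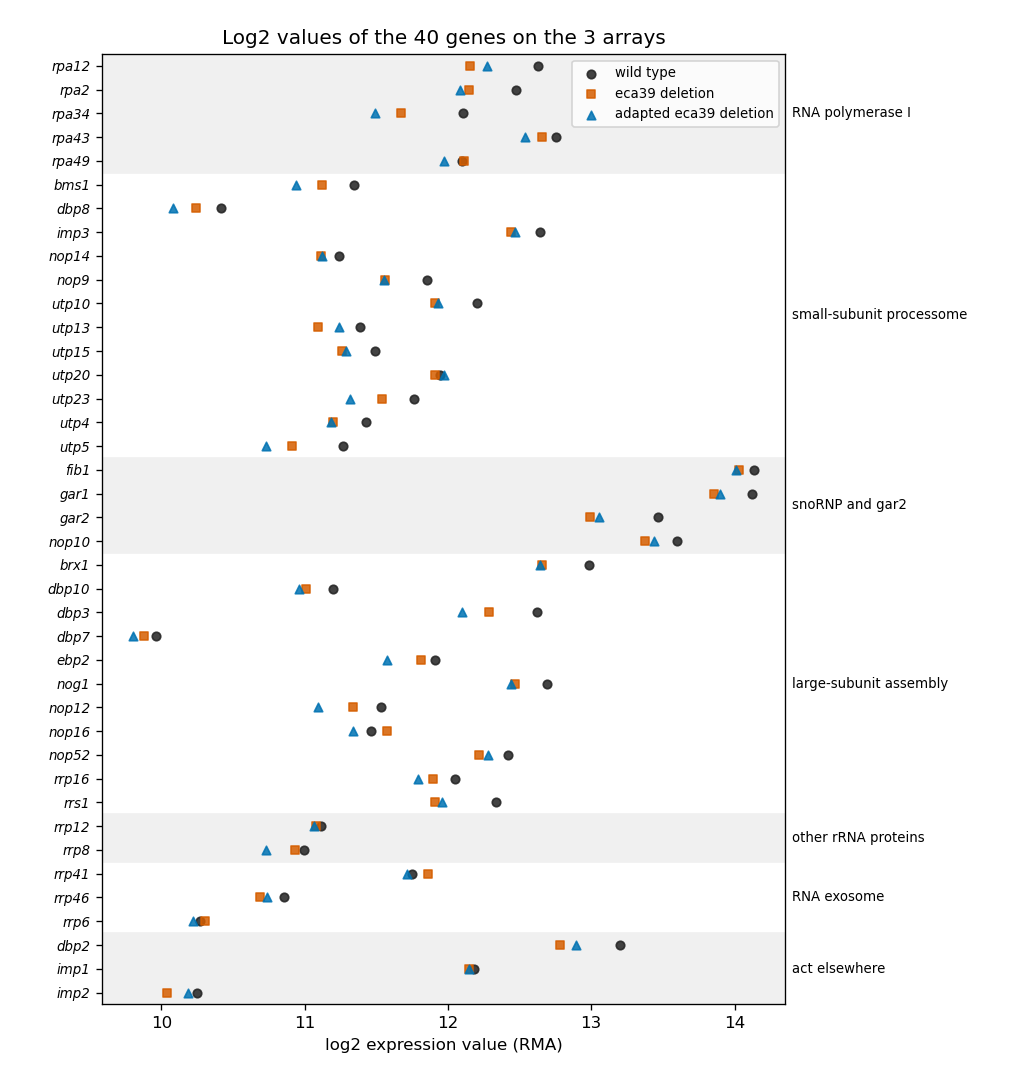
Log2 expression values (horizontal axis) of the 40 genes (rows, grouped by role) with 1 point for each of the 3 arrays. The wild-type point lies to the right of both mutant points for 35 genes, with the mutant points mostly a small step to the left.

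Few of these differences were large. At a threshold of 1.5-fold among bright features, no gene of the 40 rose or fell in the deletion culture, where 0.616% of bright features fell and 5.52% rose. In the adapted culture rpa34 alone fell, where 0.418% of bright features fell and 3.62% rose. At a lower threshold, a log2 difference of 0.32, 9 of the 40 genes were lower in the deletion culture, compared with 13 in the adapted culture, where 5.32% and 4.18% of bright features were. None of the 40 was higher by that much in either culture, where 10.8% and 10.3% of bright features were. By more than the standard deviation of all differences, 5 genes were below wild type in the deletion culture, compared with 9 in the adapted culture, where 2.52% and 2.79% of bright features were.

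**Figure D2:**
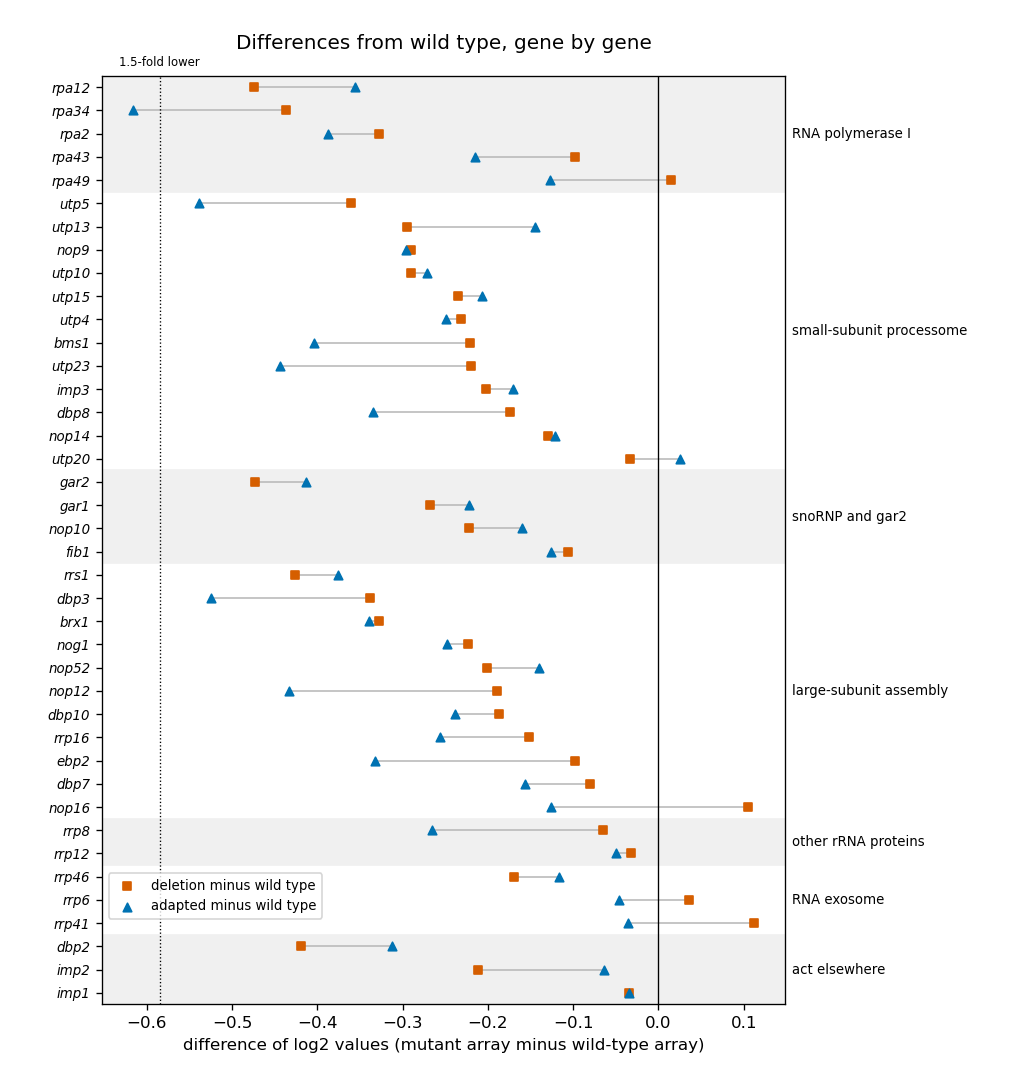
Difference of log2 values from wild type (horizontal axis) for each of the 40 genes (rows, grouped by role), with squares for the deletion culture and triangles for the adapted culture, joined by a line. The solid line marks no difference and the dotted line 1.5-fold lower, which only rpa34 in the adapted culture passes.

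The RNA polymerase I subunits included the gene with the lowest difference of the 40 in each comparison with wild type. Of the 5 genes, 4 read below wild type in the deletion culture, compared with 5 in the adapted culture, with median differences of -0.33 and -0.36. The gene rpa12, whose product acts in cleavage of the nascent RNA, read 12.63, 12.16 and 12.27 in wild-type, deletion and adapted cultures, so it was 1.39-fold and 1.28-fold lower. The gene rpa34 encodes a subunit that pairs with the rpa49 product and is specific to this polymerase, and it read 12.11, 11.67 and 11.49 in the same order. It was thus 1.35-fold lower in the deletion culture, while in the adapted culture it fell 1.53-fold. Only 0.334% of bright features had a lower difference from wild type in the adapted culture than rpa34. The gene of the second-largest subunit, rpa2, read 12.47, 12.15 and 12.09, with wild type above both mutant arrays. Smaller differences were seen for rpa43, which encodes a subunit that contacts the initiation factor Rrn3, at 12.75, 12.66 and 12.54. The gene rpa49, for the partner of the rpa34 product, read 12.10, 12.11 and 11.97 and was the only one of the 5 not below wild type in the deletion culture.

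The small-subunit processome genes were below wild type for 12 of 12 members in the deletion culture, compared with 11 of 12 in the adapted culture, with median differences of -0.23 and -0.26. Its UTP-A complex, which binds the precursor early, was measured through 4 genes, and all 4 were lower in both mutant cultures. Of these utp5 read 11.27, 10.91 and 10.73 in wild-type, deletion and adapted cultures, 1.28-fold and 1.45-fold lower. The gene utp10 read 12.20, 11.91 and 11.93, utp15 read 11.49, 11.26 and 11.29, and utp4 read 11.43, 11.20 and 11.18. For these last 3 genes both mutant arrays gave nearly the same reading. The gene utp15 lies on the same chromosome as eca39, with 15 protein-coding genes between them in the gene order of assembly ASM294v3.

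Other processome genes divided by how the adapted culture read. The gene utp13, of the UTP-B complex, read 11.39, 11.09 and 11.24 in wild type, the deletion culture and the adapted culture, so the adapted reading lay between the other arrays. For utp23, which encodes a PIN-domain protein, the readings were 11.76, 11.54 and 11.32, for the GTPase gene bms1 they were 11.34, 11.12 and 10.94, and for the helicase gene dbp8 they were 10.42, 10.24 and 10.08. In these 3 genes the adapted culture was the lowest, at 1.36-fold, 1.32-fold and 1.26-fold below wild type. The gene nop9, whose budding yeast counterpart binds pre-rRNA, read 11.85, 11.56 and 11.55, with the mutant arrays close together. Readings were 12.64, 12.44 and 12.47 for imp3, which encodes a protein of the U3 snoRNP, and 11.24, 11.11 and 11.12 for nop14, which encodes another processome protein. The gene of the large scaffold protein utp20 read 11.95, 11.91 and 11.97, which made it the only gene of the 40 above wild type in the adapted culture.

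The 3 snoRNP genes and gar2 were lower in both mutant cultures, with median differences of -0.25 in the deletion culture, compared with -0.19 in the adapted culture over the 4 genes. The gene gar2, which encodes a nucleolar protein like nucleolin, read 13.47, 12.99 and 13.05 in wild-type, deletion and adapted cultures. It was 1.39-fold and 1.33-fold lower, and only 1.43% of bright features had a lower difference in the deletion culture. The genes gar1 and nop10 encode proteins of the snoRNPs that guide pseudouridylation. They read 14.12, 13.85 and 13.90 for gar1 and 13.60, 13.37 and 13.44 for nop10. The fibrillarin gene fib1, for the methyltransferase of the other snoRNP class, read 14.14, 14.03 and 14.01. In gar1, gar2 and nop10 the deletion culture was the lowest of the 3 arrays, and in fib1 the mutant arrays differed by 0.02. The highest value on the arrays was 15.12 to 15.17, so readings of gar1 and fib1 lay toward the upper end of the scale, where array signals can be compressed.

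Among the large-subunit assembly genes, 10 of 11 were below wild type in the deletion culture, compared with 11 of 11 in the adapted culture, with median differences of -0.19 and -0.26. The gene rrs1, known in budding yeast to help load a ribonucleoprotein onto the early large subunit, read 12.34, 11.91 and 11.96 in wild-type, deletion and adapted cultures, 1.34-fold and 1.30-fold lower. The helicase gene dbp3 read 12.62, 12.29 and 12.10 and was 1.26-fold and 1.44-fold lower, and brx1, the gene of an assembly factor, read 12.98, 12.66 and 12.64. These 3 genes had the lowest differences of the group in the deletion culture. The GTPase gene nog1 read 12.69, 12.47 and 12.44.

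The gene nop12, whose budding yeast counterpart takes part in maturation of a large-subunit rRNA, read 11.53, 11.34 and 11.10 in wild-type, deletion and adapted cultures, and ebp2, which encodes a nucleolar assembly factor, read 11.91, 11.81 and 11.58. Both were closer to wild type in the deletion culture than in the adapted culture, where they were 1.35-fold and 1.26-fold lower. Readings were 12.42, 12.22 and 12.28 for nop52, related to budding yeast Rrp1, and 12.05, 11.90 and 11.79 for rrp16, also named nop53. The helicase genes dbp10 and dbp7 read 11.20, 11.01 and 10.96 and, in dim signal, 9.96, 9.88 and 9.80. The gene nop16, for a further assembly factor, read 11.47, 11.57 and 11.34, so the deletion culture was above wild type and the adapted culture below.

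The probe sets of rrp8 and of the gene named rrp12 on the platform were below wild type in both mutant cultures, and the 3 exosome genes had medians close to it. The gene rrp8, a rRNA methyltransferase in budding yeast, read 11.00, 10.93 and 10.73 in wild type, the deletion culture and the adapted culture. The probe set named rrp12 on the platform read 11.11, 11.08 and 11.06, and its gene number belongs to SPBC1105.01, which the gene table no longer calls rrp12, so its role is uncertain. Of the exosome genes, rrp46 read 10.85, 10.69 and 10.74 and rrp41 read 11.75, 11.86 and 11.71, both for ring subunits. The gene of the nuclear nuclease, rrp6, read 10.27, 10.30 and 10.22. The median difference of the 3 exosome genes was 0.035 in the deletion culture, compared with -0.046 in the adapted culture.

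The 3 genes known mainly for other work were not uniform. The helicase gene dbp2 read 13.20, 12.79 and 12.89 in wild-type, deletion and adapted cultures, 1.34-fold and 1.24-fold lower. The contractile ring gene imp2 read 10.25, 10.04 and 10.19, and the importin gene imp1 read 12.18, 12.15 and 12.15. Without these 3 genes, 33 of 37 were lower in the deletion culture, compared with 36 of 37 in the adapted culture, with medians of -0.20 and -0.25.

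The adapted and the unadapted deletion cultures gave similar readings for these genes. Of the 40 genes, 24 read lower and 15 higher in the adapted culture, with 1 equal, where 36.3% of all features were lower and 50.8% higher. The share of all features that were lower became 51.4% under repeated quantile normalization and 54.4% after removal of the intensity trend, and the counts among the 40 genes became 27 and 29. The median difference was -0.019, against 0.0029 over all features, and none reached 0.32 in either direction, where 4.41% of bright features were lower and 4.24% higher by that much. The lowest differences were those of nop12 (-0.24), ebp2 (-0.24), nop16 (-0.23) and utp23 (-0.23), and the highest were those of utp13 (0.15), imp2 (0.15) and rpa12 (0.12). By role, 9 of 11 large-subunit genes and 4 of 5 polymerase I genes were lower, with medians of -0.076 and -0.12. The processome genes split evenly, 6 lower and 6 higher, and 3 of the 4 genes in the group of snoRNP proteins and gar2 were higher. In 20 of the 40 genes readings fell in the order wild type, deletion, adapted, where 11.1% of features bright on any array did. In 14 the deletion culture was the lowest with the adapted culture between, where 20.0% did. Both shares depend on how often wild type was highest, which it was for 35 genes and for 1238 of these features. Among those 1238 features the adapted culture was lowest in 402 and the deletion culture in 727, against 20 and 14 of the 35 genes.

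**Figure D3:**
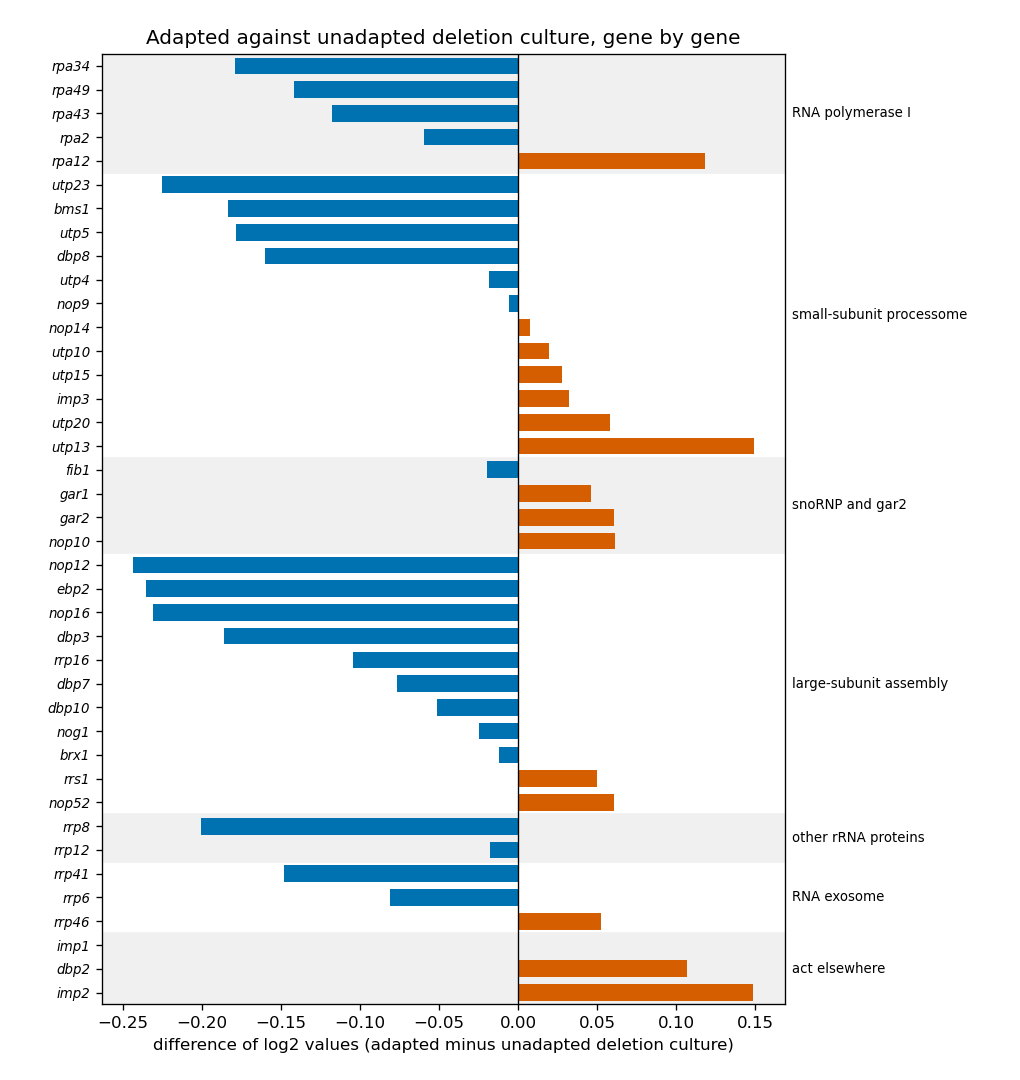
Difference of log2 values between the adapted and the unadapted deletion culture (horizontal axis) for each of the 40 genes (rows, grouped by role), with bars to the left where the adapted culture read lower. All bars lie between -0.24 and 0.15, and 9 of 11 large-subunit assembly genes point to the left.

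Genes of the same pathway with other names had similar medians. Of 77 further assembly genes listed, 33 were measured under a name. Of these, 27 were lower in the deletion culture, where 42.8% of all features and 51.5% of bright features were. In the adapted culture 29 of the 33 were lower, where 34.8% of all features and 41.1% of bright features were. Their median differences were -0.17 and -0.24. They ran from -0.49 to 0.45 in the deletion culture and from -0.56 to 0.31 in the adapted one. None of the 33 passed 1.5-fold in either direction. By at least 0.32, 7 were lower in the deletion culture, compared with 8 in the adapted culture, where 5.32% and 4.18% of bright features were. The gene ppp1, the fission yeast pescadillo of the large subunit, read 12.52, 12.05 and 11.96 in wild type, the deletion culture and the adapted culture, the helicase gene has1 read 12.30, 11.89 and 11.80, and pac1, for a ribonuclease III that cuts the precursor, read 10.65, 10.16 and 10.37. The list held drs1 and nuc2, which in fission yeast name an aspartate tRNA ligase and an anaphase-promoting complex subunit. The gene drs1 stood above wild type, by 0.45 in the deletion culture, and without both the medians were -0.18 and -0.24.

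The polymerase genes outside the stem rpa had list medians nearer to 0. Of 17 genes for polymerase I initiation and for subunits of polymerase I that bear other names or serve several polymerases, 12 were lower in each mutant culture, with medians of -0.084 and -0.053. The largest subunit of polymerase I, encoded by nuc1, read 13.14, 12.82 and 12.79, and the initiation factor gene rrn3 read 11.88, 11.54 and 11.48. The polymerase I subunit gene ker1 read 11.43, 11.25 and 10.99. These 3 genes lay in the range of the rpa genes, while the general factor tbp1 was above wild type, at 13.04, 13.24 and 13.23, as was reb1, for a protein that ends polymerase I transcription, at 10.71, 11.03 and 10.97. Of the shared subunit genes, rpc19, rpc40, rpb5 and rpc10 differed from wild type by -0.28, -0.24, -0.28 and -0.15 in the deletion culture. For rpb6, rpb8 and rpb10 the differences there were -0.084, 0 and -0.091. In the adapted culture these genes, in the same order, gave -0.23, -0.16, -0.18, -0.31, -0.063, 0.0053 and -0.053. Of 16 RNA polymerase III genes, 10 were lower in the deletion culture, compared with 9 in the adapted culture, where 42.8% and 34.8% of all features were. The medians of the 16 genes were -0.058 and -0.0019. The polymerase III subunit gene rpc11 read 12.38, 11.90 and 12.10, and maf1, which encodes a repressor of that polymerase, read 9.20, 9.42 and 9.63, below the brightness limit on each array.

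The cytosolic ribosomal protein genes, whose products the assembly factors put in place, had median differences close to 0. Of 119 genes, all bright, 76 were lower and 11 higher in the deletion culture, where 42.8% of all features and 51.5% of bright features were lower. In the adapted culture 56 were lower and 29 higher, where 34.8% of all features and 41.1% of bright features were lower. The remaining genes were equal. Their medians were -0.013 and 0, and single genes ran from -0.62 to 0.22 and from -0.39 to 0.10. The gene rpl1603 fell in the deletion culture, where it was the only one of the 119 past 1.5-fold, with 12.51, 11.89 and 12.19 in wild-type, deletion and adapted cultures. By at least 0.32, rpl1603 and rpl102 were lower in the deletion culture and rpl102 alone in the adapted one, with readings of 13.98, 13.53 and 13.60 for rpl102. Both were named after their values were seen. The median reading of these genes in wild type was 14.72, near the top of the scale at 15.12, so their differences may be understated and the contrast with the 40 genes was not tested.

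**Figure D4:**
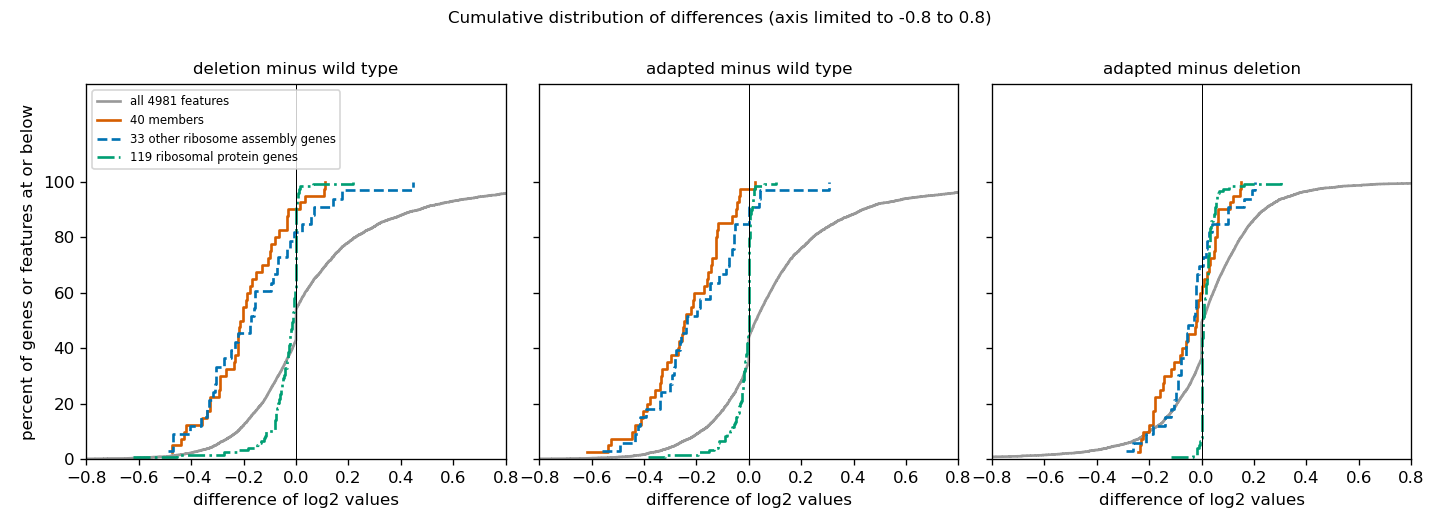
Percent of genes or features (vertical axis) with a difference of log2 values at or below the value on the horizontal axis, for all 4981 features, the 40 genes (labelled members), 33 other ribosome assembly genes and 119 cytosolic ribosomal protein genes, with 1 panel per comparison. In both comparisons with wild type the curves of the 40 genes and of the other assembly genes lie to the left of all features, with medians of -0.21 and -0.17 for deletion minus wild type and -0.24 for both for adapted minus wild type, while the ribosomal protein curve rises steeply at 0.

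The differences were also read by the brightness of the probe sets. When the 40 genes were divided by their mean over the 3 arrays, the 20 brighter had a median difference of -0.22 and the 20 dimmer one of -0.19 in the deletion culture, and the medians were -0.23 and -0.24 in the adapted culture. Pearson's correlation across the 40 genes between mean level and difference was -0.30 in the deletion culture, compared with -0.095 in the adapted culture, as a description of genes that share the same arrays. After the trend of all differences with intensity was removed, 33 genes were lower in the deletion culture with a median of -0.16, and 39 were lower in the adapted culture with a median of -0.25.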

How the data were processed

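Affymetrix arrays of 3 cultures were analysed, and RNA was labelled with the 3' IVT Express kit, per the labels' protocols. The submitters' processing notes name RMA and the affy package as the tools behind the deposited log2 values. Their versions, the genome build and any filters were not given in the sources used here. The log base was taken as 2 from the usual output of RMA.

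Of 4999 probe sets, 2917 had 1 name in the platform annotation, 20 had several and 2062 had none. Each of the 40 genes had 1 probe set, none with the suffixes _s_at or _x_at, and all matched the ASM294v3 gene table by gene number. Differences of log2 values were computed in Python 3.11.15 with pandas 2.3.3 and numpy 2.4.6, without a test, and the lowess trend with statsmodels 0.14.6 (span 0.3). The calculation was tested on simulated data with planted changes of 2-fold or more. That test does not cover differences as small as the medians reported here.

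The genes, lists, roles and the thresholds were chosen with earlier results of these data known. Genes were to be named by absolute difference, up to 4 per role and comparison with wild type, with every gene past 1.5-fold or opposite in sign to the median in both comparisons, all genes acting elsewhere, and up to 3 per other list. The remaining genes of the 40 were named to account for all of them. In the list with polymerase I initiation genes more than 3 were named, and tbp1 was not among its largest differences. Alternatives covered scaling, intensity trend, brightness limit, fold threshold and membership.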

Additional observations from a re-analysis of the deposited data

Results flagged for a closer look

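Of the 40 genes, 5 lay on opposite sides of wild type in the unadapted and the adapted deletion culture. The share of all features that did so was not computed, so this count cannot be compared with the array as a whole. The difference between the cultures was not tested, since each had 1 array, and both values of a gene share the wild-type array. The log2 difference from wild type was 0.11 in the deletion culture, compared with -0.13 in the adapted culture, for nop16, 0.11 and -0.036 for rrp41, 0.015 and -0.13 for rpa49, 0.035 and -0.046 for rrp6, and -0.033 and 0.025 for utp20. For nop16 and rrp41 both signs were the same under centring, repeated quantile normalization and removal of the intensity trend. For the other 3 genes at least 1 of these settings changed a sign. For rpa49 the deletion value became -0.040 under centring. For rrp6 it became -0.020 under centring and -0.0034 under repeated quantile normalization. For utp20 the deletion value became 0.034 after removal of the trend, and the adapted value became -0.029 under centring.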

How the results depend on the processing

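Both medians against wild type stayed below 0 and within 1.5 times their values under every scaling, trend, brightness and membership alternative run. Some of these alternatives could not change the medians because they kept the same 40 genes. They were the limit at the 30th percentile, the removal of probe sets with the suffixes _s_at and _x_at, and membership by updated symbol. The count of genes below wild type ran from 33 to 38 of 40 for deletion minus wild type and from 39 to 40 for adapted minus wild type over the scaling and trend alternatives. With the median restricted to genes above the 50th percentile of the table it was -0.22 and -0.25. The deletion median was -0.26 under centring and -0.16 after removal of the intensity trend. The median between the adapted and the unadapted culture moved from -0.019 to -0.039 under repeated quantile normalization and to -0.054 after removal of the trend, and the cause was not tested. The count of genes that fell became 9 in the deletion culture, compared with 13 in the adapted culture, at a log2 difference of 0.32, and 0 in the adapted culture at 2-fold. No paired analysis was possible because each group has 1 array, and for the same reason no array could be left out. Without replicates, differences of the size found here have no error estimate.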
